A study of Mus musculus with 6 samples.

Results

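The AP-1 factors of the Fos and Jun families were described in mouse skin around incisional wounds, as 8 genes taken by symbol from a table of 23940 genes: Fos, Fosb, Fosl1, Fosl2, Jun, Junb, Jund and Atf3. The study asked how topical vemurafenib, an inhibitor of the kinase BRAF, acts on wounds whose own BRAF is normal. Full-depth incisions were made in the back skin of female mice of 8 to 10 weeks (C3H in the labels, C3Hf/Kam in the methods), and the wounds received vemurafenib (2 mg every other day) or, per the study's methods, the DMSO and PBS vehicle alone, while the sample labels call the same wounds untreated. Skin with the wound was taken on days 2, 6 and 14 in each arm, which gives 6 groups of 1 RNA-seq library each. The number of mice in a library is not given in the sources used here, and unwounded skin is not among the samples.

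AP-1 is a dimer of basic leucine zipper proteins that binds DNA at a short palindromic site. Jun proteins pair with each other or with a Fos protein, Fos proteins need a Jun partner, and Atf3 can pair with Jun proteins and often acts as a repressor. Fos, Fosb, Jun, Junb and Atf3 are immediate early genes, switched on within minutes by growth factors, cytokines and stress without new protein synthesis, and their transcripts are short-lived. Fosl1 and Fosl2 follow later and last longer, and Jund is present in most resting cells. The kinase ERK, the last step of the RAF, MEK and ERK cascade, acts on Fos transcription through ternary complex factors and also stabilizes Fos and Fosl1 proteins, while JNK phosphorylates Jun. In skin, AP-1 factors are known for roles in keratinocyte differentiation, in inflammation and in the closing of wounds.

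Levels are given in FPKM, a fragment number divided by transcript length and by the mapped fragments of the library, as the authors computed it. FPKM are per length, so that levels can be compared between genes, but they carry no read numbers and how deeply a library was sequenced cannot be read from them. The libraries each had 12746 to 13062 genes at or above 1 FPKM. Vemurafenib day 2 and vehicle day 14 stood apart in form. In these libraries at most 0.0337% of the values above 0 had more than 6 digits, against 50.3% to 58.1% in the other 4, where many values have the form of averages. They also had the most genes at 0, namely 6088 and 6000, against 5214 to 5446 in the others. The day 2 and day 14 comparisons each rest on 1 of these libraries, and that of day 6 on neither. A ratio of the arms on 1 day compares 2 libraries, has no replicate check and carries no test. Ratios are log2 of vemurafenib over vehicle after adding 0.1 FPKM to both, and a gene was counted as apart where the ratio reached 2-fold among the 13392 genes whose 6 libraries averaged 1 FPKM or more. All 8 members passed this filter. Fosl1, with a mean of 1.76 FPKM, passed it through its day 2 and vemurafenib day 6 values.

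The 8 genes lie on 7 chromosomes of the mm9 build. In its GENCODE annotation Jun (chr4:94715725-94718913), Junb (chr8:87500811-87502617) and Jund (chr8:73221638-73224515) are single-exon genes, and Fos (chr12:86814840-86818223), Fosb (chr7:19888070-19895394), Fosl1 (chr19:5447703-5455945), Fosl2 (chr5:32438845-32460204) and Atf3 (chr1:192994175-193007219) have 4 exons in their longest coding transcript. The longest exact stretch that the transcripts of any 2 members share was 20 bases, between Jun and Jund. Fosl1 overlaps Ccdc85b on the opposite strand. Whether the libraries kept strand is not given in the sources used here, so that reads of both genes cannot be told apart in the overlap. Ccdc85b was, in the order of the days, at 30.1, 19.4 and 11.6 FPKM with vemurafenib and at 24.8, 14.4 and 7.99 FPKM with vehicle. Jun and Jund also overlap opposite-strand genes, BC042782 and Gm11175, which are not analysed here. The pentamer AUUUA, a mark of unstable transcripts, occurred 4 times in the 3′ UTR of Fos and of Jun, 3 times in that of Atf3, 8 times in the long 3′ UTR of Fosl2 and 1 or 2 times in the others. Per kilobase, Fos had 4.91 and Junb 4.14, values reached by 7.69% and 11.1% of 18145 genes, and Fosb had 0.472, below the median of 1.20.

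The 250 bases before the start site were available from RefSeq (GRCm38.p6) for 7 of the 8 genes, Fosl1 being the gene without an entry. They are shown for the 5 of these genes that were at least 2-fold higher with vemurafenib on day 6, 5′ to 3′ on the strand of the gene, with 2 motifs in capitals. These are TGACG (or its reverse complement), the core of the cyclic AMP response element to which Atf and Creb proteins bind, and TGACATCA, an AP-1-like site.
Fos, chr12:85473640-85473889, plus strand: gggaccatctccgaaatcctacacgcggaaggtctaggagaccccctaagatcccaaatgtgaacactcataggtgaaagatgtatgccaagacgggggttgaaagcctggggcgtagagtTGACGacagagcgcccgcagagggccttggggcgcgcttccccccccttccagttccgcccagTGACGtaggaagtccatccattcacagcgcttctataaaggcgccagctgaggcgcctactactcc
Fosb, chr7:19310046-19310295, minus strand: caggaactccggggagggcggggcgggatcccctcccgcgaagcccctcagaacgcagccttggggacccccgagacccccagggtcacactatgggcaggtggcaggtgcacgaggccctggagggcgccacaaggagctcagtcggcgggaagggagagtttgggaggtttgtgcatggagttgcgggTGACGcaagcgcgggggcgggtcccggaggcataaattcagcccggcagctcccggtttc
Jun, chr4:95052223-95052472, minus strand: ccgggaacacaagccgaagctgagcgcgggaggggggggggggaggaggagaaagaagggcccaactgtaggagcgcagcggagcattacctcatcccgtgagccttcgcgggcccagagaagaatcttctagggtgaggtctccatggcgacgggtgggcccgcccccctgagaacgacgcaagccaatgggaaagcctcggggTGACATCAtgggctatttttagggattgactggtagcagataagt
Junb, chr8:84978749-84978998, minus strand: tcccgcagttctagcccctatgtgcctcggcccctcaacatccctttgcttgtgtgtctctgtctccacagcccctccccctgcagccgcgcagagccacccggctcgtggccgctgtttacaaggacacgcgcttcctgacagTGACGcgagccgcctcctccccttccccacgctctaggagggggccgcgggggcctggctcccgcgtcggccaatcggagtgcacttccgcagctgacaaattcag
Atf3, chr1:191183334-191183583, minus strand: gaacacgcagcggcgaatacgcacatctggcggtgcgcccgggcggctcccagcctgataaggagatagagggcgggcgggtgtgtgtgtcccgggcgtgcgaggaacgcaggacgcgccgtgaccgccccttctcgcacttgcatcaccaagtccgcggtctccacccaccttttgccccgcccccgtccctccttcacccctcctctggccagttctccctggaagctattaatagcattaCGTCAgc
Counting back from -1 at the base before the start, TGACG began at -129 and at -66 in Fos, at -60 in Fosb and at -106 in Junb, and its reverse complement at -7 in Atf3. TGACATCA began at -45 in Jun. Neither motif was found in these windows of Fosl2 and Jund. TGACG occurred on either strand in 4 of the 7 windows and in 17.9% of 32536 windows of the same length over all genes, and TGACATCA in 1 of 7 and in 2.84%. The full element TGACGTCA (1.56% of all windows), which contains TGACG, the AP-1 site TGACTCA (4.45%) and the CArG box of serum response factor (1.48%) were found in none of the 7 windows. Bases farther from the start were not searched, so that a motif missing here may lie outside the windows. A match of letters is a description of the sequence and shows no binding.

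In all 6 libraries Junb was the most abundant of the 8 transcripts and Fosl1 the least. Junb, which can oppose Jun and restrain keratinocyte inflammation, was at 992, 410.2 and 198 FPKM with vemurafenib on days 2, 6 and 14, and at 1109.8, 204 and 149 FPKM with vehicle. Jund, the constitutive Jun protein, was at 201, 172 and 191 FPKM with vemurafenib and at 216, 154 and 135 FPKM with vehicle. It varied by 1.60-fold over the 6 libraries and Fosl2 by 1.47-fold, against 111.7-fold for Fosb, 63.8-fold for Fos, 57.5-fold for Fosl1 and 25.6-fold for Atf3. On day 2 Fos stood in second place in both arms, above Jund. On day 14 the order was the same in both arms, with Junb, Jund, Jun and Fosl2 above Atf3, Fos, Fosb and Fosl1. The arms differed in order on day 6, when Fos was above Jun, Atf3 and Fosl2 with vemurafenib and below Jun and Fosl2 with vehicle. With 1 library per group no neighbours in these orders can be told apart beyond a spread.

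**Figure D1:**
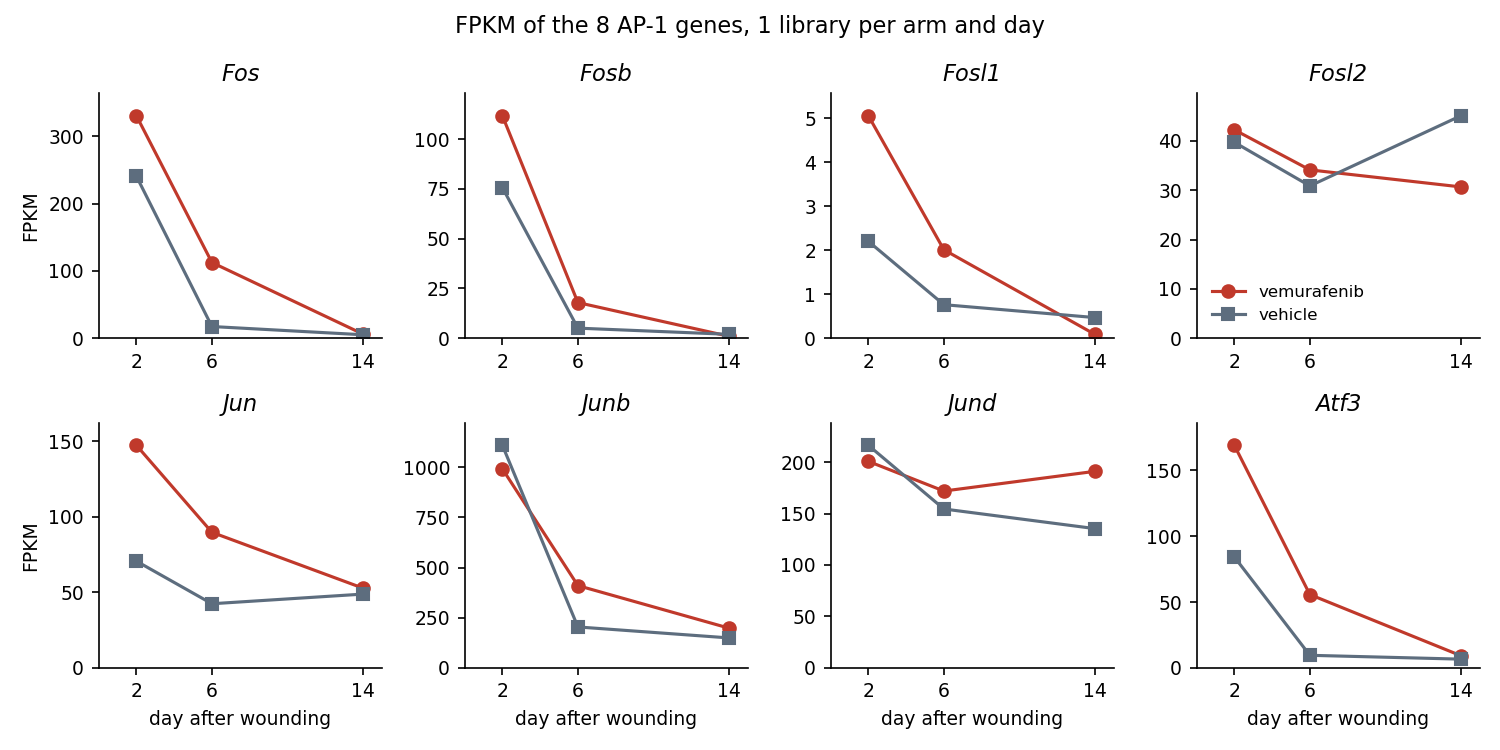
FPKM (vertical axes, linear, from 0) of each of the 8 genes against the day after wounding, with circles for vemurafenib and squares for vehicle, 1 library per point. Fos, Fosb, Fosl1, Junb and Atf3 were highest on day 2 and lowest on day 14 in both arms, and on day 6 Fos was at 113 FPKM with vemurafenib against 17.4 FPKM with vehicle.

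On day 6 all 8 members had higher values in the vemurafenib wound than in the vehicle wound, beside 54.5% of all genes. Of the members 6 were at least 2-fold higher, where 5.29% of all genes were. Fos, the founding member of its family and a direct target of ERK signalling, was at 113 FPKM with vemurafenib and 17.4 FPKM with vehicle, a log2 ratio of 2.68 (6.43-fold). This was the 78th highest ratio of 13392 genes. Atf3, a stress-induced factor that damps cytokine genes in macrophages, was at 55.7 FPKM with vemurafenib and 9.53 FPKM with vehicle (log2 ratio 2.53, the 83rd highest). Fosb, the closest relative of Fos, was at 17.9 FPKM with vemurafenib and 5.08 FPKM with vehicle (1.80). These genes, with the widest range over the 6 libraries apart from Fosl1, thus also had the highest day 6 ratios. Fosl1, known for its induction by ERK and for roles in cell migration, was at 2.01 FPKM with vemurafenib and 0.762 FPKM with vehicle (1.29). Jun, the partner shared by the Fos proteins, was at 89.6 FPKM with vemurafenib and 42.4 FPKM with vehicle (1.08). Junb was at 410.2 FPKM with vemurafenib and 204 FPKM with vehicle (1.01), just past the 2-fold limit. Fosl2 and Jund were near even, at log2 ratios of 0.14 and 0.15, with 34.1 FPKM of Fosl2 with vemurafenib against 30.9 FPKM with vehicle. In the same libraries 6 of 8 macrophage markers were at least 2-fold higher and 7 of 8 differentiated keratinocyte markers at least 2-fold lower with vemurafenib, and their part in these ratios was not tested. The median ratio of the 8 members was 1.18, beside 0.04 for all genes. Junb fell short of 2-fold when the median of all genes was set to 0 (0.96) and Fosl1 when 1 FPKM was added in place of 0.1 (0.77), so that 5 members passed in either case. Fosl1 passed the filter on low values in part through its vemurafenib value of this day. With the filter raised to 5 FPKM, which leaves Fosl1 out, 5 of 7 members were at least 2-fold higher, beside 4.99% of genes. With FPKM rescaled to the same total in each library the median of all genes moved to 0.40 and that of the members to 1.53, with the same count of 6.

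**Figure D2:**
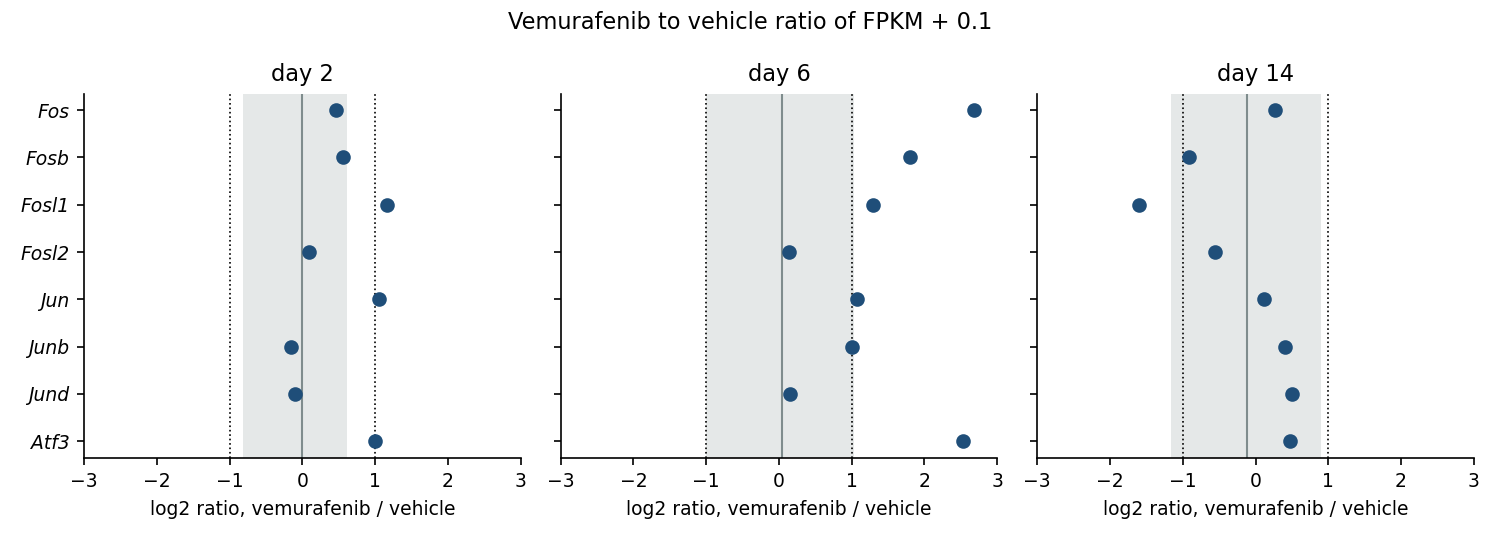
Log2 ratio of vemurafenib to vehicle FPKM (after adding 0.1) of each gene on days 2, 6 and 14, 1 library per arm. The grey band holds the central 90% of 13392 genes, the grey line is their median and the dotted lines mark 2-fold. On day 6, Fos (2.68) and Atf3 (2.53) lay farthest to the right, and on day 14 Fosl1 (-1.60) farthest to the left.

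On day 2 the arms were closer, and 3 members, Fosl1, Jun and Atf3, were at least 2-fold higher with vemurafenib, where 1.43% of all genes were. Jun was at 147 FPKM with vemurafenib and 70.6 FPKM with vehicle (log2 ratio 1.06). Atf3 was at 169 FPKM with vemurafenib and 84.2 FPKM with vehicle, at the limit itself (1.0). Fosl1 was at 5.05 FPKM with vemurafenib and 2.20 FPKM with vehicle (1.16). Fos, at 331 FPKM with vemurafenib and 241 FPKM with vehicle (0.46), and Fosb, at 112 FPKM with vemurafenib and 75.7 FPKM with vehicle (0.56), were higher by less than 2-fold. Junb (-0.16) and Jund (-0.11) were slightly lower with vemurafenib, a sign that turned when FPKM were rescaled to the same total (0.03 and 0.08). The members' median of 0.51 stood beside 0.00 for all genes. The count was 1 when 1 FPKM was added in place of 0.1, Jun alone remaining, as Atf3 then had 0.997 and Fosl1 0.92, and Atf3 also fell short (0.96) with the libraries scaled to the same upper quartile. With the filter raised to 5 FPKM, which leaves Fosl1 out, the count was 2 of 7, beside 1.20% of genes.

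On day 14 Fos, Fosb, Fosl1 and Atf3 were below 10 FPKM in both arms, while Junb was still the most abundant of the 8. No member was at least 2-fold higher with vemurafenib, where 3.64% of all genes were. Fosl1 alone was at least 2-fold lower, where 7.66% of all genes were. It was at 0.0879 FPKM with vemurafenib and 0.470 FPKM with vehicle (log2 ratio -1.60), and at such low levels the ratio depended on the constant added, with -0.43 when 1 FPKM was used. Fosb was also lower, at 1.0 FPKM with vemurafenib and 1.97 FPKM with vehicle (-0.91), and so was Fosl2, at 30.7 FPKM with vemurafenib and 45.1 FPKM with vehicle (-0.55). The other members were higher with vemurafenib by less than 2-fold. Jund was at 191 FPKM with vemurafenib and 135 FPKM with vehicle (0.50), Atf3 at 9.22 and 6.60 FPKM (0.48) and Fos at 6.25 and 5.19 FPKM (0.26). Jun was near even, at 52.7 FPKM with vemurafenib and 48.8 FPKM with vehicle (0.11, or -0.02 with the same total). The median of the members was 0.19, beside -0.12 for all genes.

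With the 3 days taken as blocks, limma tested for a shift by vemurafenib shared by all days, on 2 residual degrees of freedom. At an adjusted p under 0.05 limma called 0 of the 8 members. The unadjusted limma p was under 0.05 for 2 of them, beside 303 of 13392 genes. The fit called 0.00747% of all genes, that is 1 of 13392. Atf3 had the highest estimate, a log2 effect of 1.34 ± 0.40 (SE, higher with vemurafenib on 3 of 3 days, unadjusted p = 0.0142, limma adjusted p = 1.0). Fos (1.14 ± 0.48, adjusted p = 1.0) was also higher on 3 of 3 days, and so was Jun (0.75 ± 0.28, unadjusted p = 0.0354). Without day 6 the estimates were 0.74 ± 0.35 for Atf3, 0.36 ± 0.34 for Fos and 0.59 ± 0.38 for Jun. Whether the ratio differed between days could not be tested with 1 library per arm and day.

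Fos, Fosb, Fosl1, Junb and Atf3 were lower on each later day in both arms, while Jun rose from 42.4 FPKM on day 6 to 48.8 FPKM on day 14 with vehicle. On day 6 relative to day 2, Fos, Fosb, Fosl1, Junb and Atf3 were at least 2-fold lower in the vemurafenib wounds (5 of 8, beside 6.7% of all genes) and also in the vehicle wounds (5 of 8, beside 11.8%). With the filter raised to 5 FPKM, which leaves Fosl1 out, the count was 4 of 7 with vemurafenib (beside 6.30% of genes) and 4 of 7 with vehicle (beside 11.1%). These changes come from the same libraries as the ratios between the arms and, with 1 library each, carry no test. The gap between the arms in the share left on day 6 follows from the arm ratios of days 2 and 6, so it is no separate result. It rests in part on vemurafenib day 2, a library that stood apart in form. The vemurafenib wound of day 6 held 34.0% of the day 2 level of Fos, against 7.24% in the vehicle wound. For Atf3 these shares were 32.9% with vemurafenib and 11.3% with vehicle, for Junb 41.3% and 18.4%, and for Fosb 16.0% and 6.71%. Jun kept 60.9% with vemurafenib and 60.1% with vehicle, so that its gap between the arms on day 6 was about that of day 2. Fosl1 kept 39.8% with vemurafenib and 34.6% with vehicle. From day 6 to day 14 the same 5 genes were again at least 2-fold lower with vemurafenib (beside 14.6% of all genes), while in vehicle wounds Fos and Fosb alone were (2 of 8, beside 10.1%). With the filter of 5 FPKM, without Fosl1, the vemurafenib count was 4 of 7, beside 13.6% of genes. The log2 change of Fos over this interval was -4.15 with vemurafenib and -1.73 with vehicle, and that of Atf3 -2.58 with vemurafenib and -0.52 with vehicle. This gap between the arms likewise follows from the arm ratios of days 6 and 14, so it is no separate result. It rests in part on vehicle day 14, the other library that stood apart in form. By day 14, Fos was at 1.89% of its day 2 level with vemurafenib and 2.15% with vehicle. Fosl1 was at 1.74% with vemurafenib and 21.4% with vehicle. Fosl2 ended at 72.6% of day 2 with vemurafenib and 114% with vehicle.

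**Figure D3:**
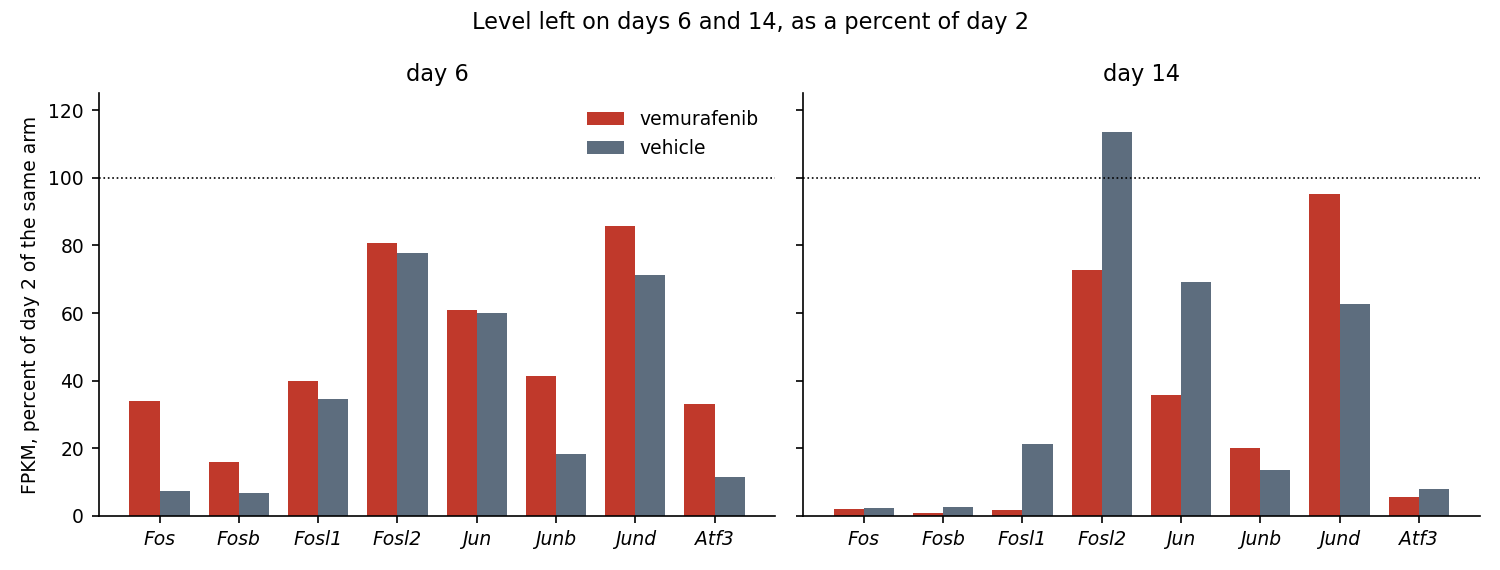
FPKM on day 6 (left) and day 14 (right) as a percent of day 2 in the same arm, with the vemurafenib bar left of the vehicle bar for each gene and a dotted line at 100%. On day 6 Fos kept 34.0% with vemurafenib against 7.24% with vehicle, while Jun kept 60.9% and 60.1%.

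Taking both arms as the replicates of a day, the same limma fit tested the change with time. Between day 6 and day 2, Fosb fell by 3.25 ± 0.59 on the log2 scale (SE, lower in 2 of 2 arms, limma adjusted p = 0.0338) and Junb fell by 1.86 ± 0.38 (lower in 2 of 2 arms, limma adjusted p = 0.0490). These were 2 of 8 members, beside 4.75% of all genes. Atf3 (-2.37 ± 0.49, limma adjusted p = 0.0508) and Fos (-2.67 ± 0.59, limma adjusted p = 0.0612) missed the threshold. Junb also missed it when 1 FPKM was added (limma adjusted p = 0.0576) or with the same upper quartile (limma adjusted p = 0.0861). Between day 14 and day 6 the limma fit called 0 of 8 members, beside 3.64% of all genes, with Fos at -2.94 ± 0.59 (limma adjusted p = 0.0520). The unadjusted limma p was under 0.05 for 4 of the members, beside 2565 of 13392 genes. These were Fos, Fosb, Atf3 and Fosl1, of which Fosl1 is no support, since its higher, earlier libraries carried it past the filter. Between day 14 and day 2, a comparison added after the values were seen, the limma fit called 5 of 8 members, beside 17.9% of all genes called in either direction. All 5 were lower in 2 of 2 arms. Among them were Fosb (-5.93 ± 0.59, limma adjusted p = 0.00130), Fos (-5.61 ± 0.59, limma adjusted p = 0.00162), Atf3 (-3.92 ± 0.49, limma adjusted p = 0.00329) and Junb (-2.61 ± 0.38, limma adjusted p = 0.00589). The call of Fosl1 (-3.40 ± 0.80, limma adjusted p = 0.0315) is no support, since only its higher, earlier libraries carried it past the filter on low values. Jun (-1.01 ± 0.35, limma adjusted p = 0.10), Jund (-0.37 ± 0.31, limma adjusted p = 0.457) and Fosl2 (-0.14 ± 0.30, limma adjusted p = 0.791) were not called. With no filter on low FPKM no member was called in any of these day comparisons, and these 5 genes, Fosl1 included, had limma adjusted p between 0.112 and 0.225 for day 14 against day 2. Cell markers moved with the days as well. On days 2, 6 and 14 the summed FPKM of 5 neutrophil markers was 9050.3, 718 and 46.5 with vemurafenib and 7164, 941 and 94.0 with vehicle, and that of 5 skeletal muscle markers 17537, 8264 and 4396 with vemurafenib and 16024, 3519.8 and 1437.0 with vehicle. That of 8 macrophage markers was 1451.5, 2094.1 and 596 with vemurafenib and 1451.4, 734 and 367 with vehicle. Hair follicle markers ran the other way, with sums of 1.70, 1232.1 and 12423.5 with vemurafenib and 1.0, 2922.5 and 13136.5 with vehicle, Krt35 being at 0 on day 2 in both arms and Krt25 in the vehicle wound. The part of these markers in the change of the AP-1 genes with time was not tested.

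Summed over the 8 genes, FPKM were 1999.4 with vemurafenib and 1839.5 with vehicle on day 2, 894 and 464 on day 6, and 489 and 393 on day 14. Jun family transcripts made up most of this sum in every library. The share of the 4 Fos family transcripts was 24.5% with vemurafenib and 19.5% with vehicle on day 2. It was 18.6% with vemurafenib and 11.7% with vehicle on day 6, and 7.77% with vemurafenib and 13.4% with vehicle on day 14. Within the Fos family Fos itself was the most abundant on day 2 in both arms and on day 6 with vemurafenib, and Fosl2 in the other 3 libraries. These sums are of transcripts and say nothing of the dimers formed.

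**Figure D4:**
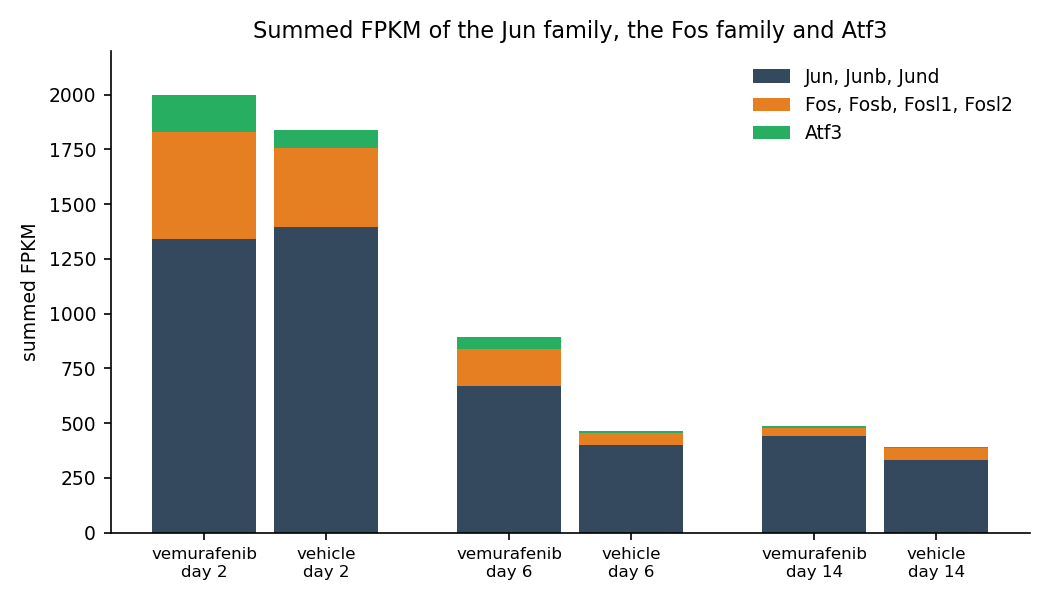
Summed FPKM (vertical axis, linear, from 0) of the Jun family, the Fos family and Atf3 in each of the 6 libraries, with vemurafenib left of vehicle on each day. The sum on day 6 was 894 FPKM with vemurafenib and 464 FPKM with vehicle, and the Fos family took 18.6% and 11.7% of it.

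Other immediate early genes had day 6 ratios like those of the members. Of 20 such genes (Egr, Nr4a, Ier and others), 11 were at least 2-fold higher with vemurafenib on day 6 and 0 lower, with a median log2 ratio of 1.14, beside 0.04 for all genes. Nr4a1, an orphan nuclear receptor gene, was at 177 FPKM with vemurafenib and 19.7 FPKM with vehicle on that day, and Egr1 at 149 FPKM with vemurafenib and 34.5 FPKM with vehicle. On day 14 the list was even, with 10 genes above and 10 below 0 (median -0.04).

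On day 6 the transcripts of factors that act before or beside AP-1 lay closer to even. Transcript levels do not measure the activity of a kinase. Among 22 genes of the kinases and ternary complex factors upstream of Fos and Jun, 0 were at least 2-fold higher on day 6 and 1 was lower, with a median of 0.04. The lower gene was Mapk13, the p38 delta kinase gene of epidermis, at 48.3 FPKM with vemurafenib and 119 FPKM with vehicle. Map2k1, which codes for MEK1, was at 31.7 FPKM with vemurafenib and 21.4 FPKM with vehicle (0.57). Of 20 related basic leucine zipper genes past the filter, 19 had higher values with vemurafenib on day 6 (beside 54.5% of all genes) and 1 was at least 2-fold higher, with a median of 0.41. This was Cebpd, an acute-phase factor, at 32.8 FPKM with vemurafenib and 13.7 FPKM with vehicle. Batf, an AP-1 factor of lymphocytes and myeloid cells, was at 9.66 FPKM with vemurafenib and 5.40 FPKM with vehicle (0.83). On day 2 Batf lay the other way, at 8.82 FPKM with vemurafenib and 19.2 FPKM with vehicle (-1.11), as did Batf3 (-1.49), while the kinase gene Map2k6 was higher (1.11). On day 14, when Fosl1 was the 1 member past 2-fold, 2 of the 22 upstream genes were at least 2-fold lower, Rps6ka3 (-2.20) and Elk4 (-1.22). Among the 20 related factors Cebpb was at least 2-fold higher (1.38) and Bach1 lower (-1.02). The lists were not tested against each other.

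Genes known as targets of AP-1 went both ways on day 6. Of 24 genes, 7 were at least 2-fold higher with vemurafenib and 5 at least 2-fold lower, with a median log2 ratio of 0.39. The higher genes included Ccl2, Il6, Spp1, Ptgs2, Plaur and Hmox1. The chemokine gene Ccl2 was at 190.0 FPKM with vemurafenib and 15.6 FPKM with vehicle, the cytokine gene Il6 at 6.21 FPKM with vemurafenib and 0.563 FPKM with vehicle, and Spp1, the osteopontin gene, at 147 FPKM with vemurafenib and 20.5 FPKM with vehicle. The lower genes were Ivl, Lor, Sprr1a, Sprr1b and Krt6a, all of keratinocytes. Ivl, which codes for the envelope protein involucrin, was at 25.9 FPKM with vemurafenib and 92.3 FPKM with vehicle (-1.83). On day 2, 0 of the 24 were 2-fold higher and 1 lower, and on day 14, 0 were higher and 3 lower (median -0.44).

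**Figure D5:**
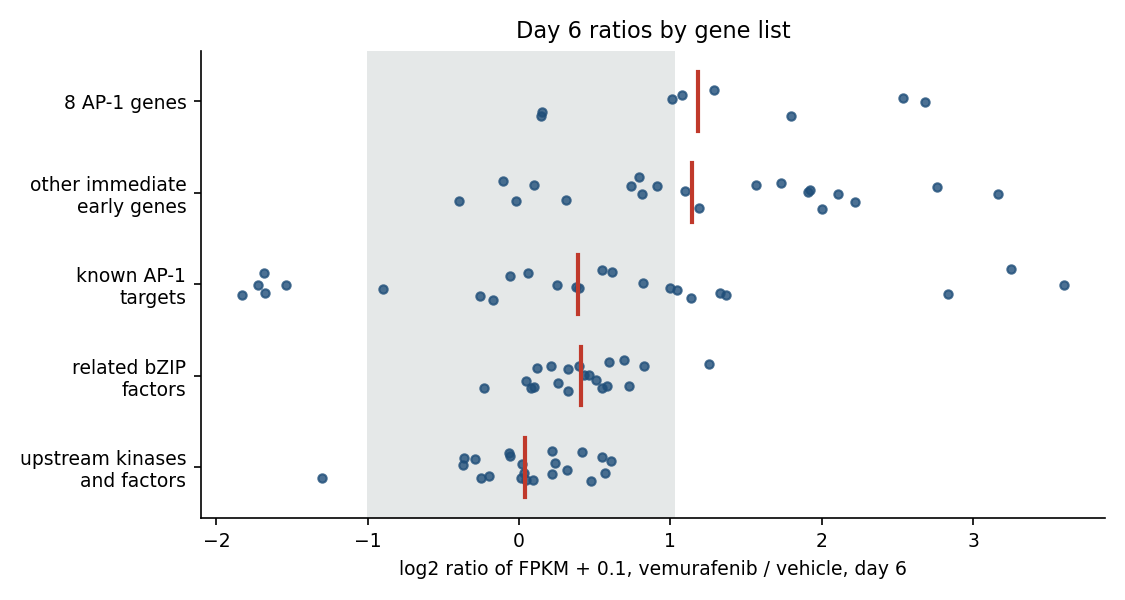
Day 6 log2 ratio of vemurafenib to vehicle FPKM (after adding 0.1) of every gene averaging 1 FPKM or more in 5 lists, 1 point per gene, with a red bar at the median of a list and a grey band over the central 90% of all genes. The medians were 1.18 for the 8 AP-1 genes, 1.14 for other immediate early genes, 0.39 for known AP-1 targets, 0.41 for related basic leucine zipper factors and 0.04 for upstream kinases and factors. Points are spread vertically so that they can be seen.

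Transcripts of cell type markers also differed between the arms, and in these bulk samples fewer cells of a type and less RNA per cell cannot be told apart. The libraries held the defining transcripts of skin throughout, with Krt14 at 1331.6 FPKM or more and Col1a1 at 102 FPKM or more in each. On day 6, 6 of 8 macrophage markers were at least 2-fold higher with vemurafenib (summed FPKM 2094.1 with vemurafenib and 734 with vehicle), as were 4 of 5 skeletal muscle markers (8264 and 3519.8). Of 5 neutrophil markers 2 were at least 2-fold higher, while their sum was 718 with vemurafenib and 941 with vehicle. In the same libraries 7 of 8 differentiated keratinocyte markers (4726 with vemurafenib and 13482 with vehicle) and 3 of 6 basal keratinocyte markers (4735 and 11928) were at least 2-fold lower. None of the markers of these cell types was at 0 in any library. On day 2, 0 of 8 macrophage markers were 2-fold apart, but 7 of 8 were lower with vemurafenib (median log2 ratio -0.45). Their sums, 1451.5 with vemurafenib and 1451.4 with vehicle, were level through Cd14, the marker that was higher (910.1 and 692 FPKM). On day 14, 5 of 5 muscle markers were at least 2-fold higher with vemurafenib (4396 with vemurafenib and 1437.0 with vehicle). On that day 5 of 8 differentiated keratinocyte markers (median -1.15) and 3 of 8 fibroblast markers (median -0.80) were at least 2-fold lower, with 8 of 8 below 0 in both lists. Of 12 heat shock genes, which respond to stress of the tissue and its handling, 0 were 2-fold apart on day 6 (summed FPKM 2097.2 with vemurafenib and 2457.0 with vehicle). On day 2, 2 of 12 were higher, Hspa1b at 66.4 FPKM with vemurafenib and 27.5 FPKM with vehicle (1.27) and Dnajb1 at 73.7 and 35.9 FPKM (1.04). The part of cell make-up and handling in the AP-1 ratios was not tested.

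The genes whose pattern over the 6 libraries was most like that of a member were found by the root mean square difference of log2 FPKM, each gene centred on its own mean. Of the 9334 genes that averaged 5 FPKM or more, 8773 were ranked, the others being left out by symbol. Cd14, the lipopolysaccharide co-receptor gene of monocytes, was nearest to Fos (0.29), followed by Clec4d and Irf7. For Fosb the nearest was Fpr1 (0.20), a receptor gene of neutrophils and other myeloid cells, and Nlrp3, an inflammasome gene, was also near. For Atf3 they were Mt3 (0.28), F10 and Lilrb4. Serpinb1a (0.41), Arc and Mybph were nearest to Fosl1, and Asph (0.18), Pnrc1 and Ccnl1 to Jun. For Junb the nearest were Wdr92 (0.14), Lmod2 and Klhl30. Fosl2 and Jund, with little change, were nearest to Mbnl1 (0.05), Rreb1 and Dnm1l, and to Samm50 (0.05), Ndufaf3 and Zfp513. Among the members themselves the closest pair was Fosl2 and Jund (0.33), then Fos and Fosb (0.49), and the farthest Fosb and Fosl2 (2.42).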

How the data were processed

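RNA from wounded C3H mouse skin was sequenced in 6 libraries, 1 per arm and day. The authors mapped the reads to mm9 with TopHat and computed FPKM with cuffquant (bias and multi-read correction, compatible hits) and cuffnorm, while TopHat2 and Cuffdiff also stand in the submitters' processing notes. The methods name paired-end and the labels single-end reads. The deposited FPKM carry no read counts, so that sequencing depth, and any interval that would need it, is missing. Of 23940 rows, 27 whose symbols had become dates were left out.

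Log2 ratios were taken after adding 0.1 FPKM. The time and arm effects were fitted in R 4.3.3 with limma 3.58.1 on the log2 values (arm and day as terms, mean-variance trend, 2 residual degrees of freedom, Benjamini-Hochberg over 13392 genes). Simulated data with a shift common to the days were used to check the size of the median estimate, and not the calls. The replicates of a day are the 2 arms, and those of an arm the 3 days. All 6 libraries had the same weight in the fit, including the 2 that stood apart in form. Named genes were the members, up to 4 genes of each list with the largest day 6 ratio, and the 3 genes nearest in pattern to each member (members, small RNA, histone and unnamed model genes left out). The filter on symbols also removed every gene whose symbol starts with Rn, protein-coding genes included, from the search for nearest patterns. The AP-1 targets other than Ccl2, Il6, Spp1 and Ivl, and Batf3, Map2k6, Elk4, Cebpb, Bach1, Dnajb1 and Ccdc85b, were named after their values were seen. Some genes that these rules would name are not reported here. The members and lists were chosen with earlier results of these data known. Alternatives were another constant, other filters, other scalings and leaving out each day. Promoter windows were read from RefSeq, gene models and transcripts from GENCODE for NCBIM37. Other steps ran in Python 3.11.15 with numpy 2.4.6, pandas 2.3.3 and matplotlib 3.10.9.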

Additional observations from a re-analysis of the deposited data

Results flagged for a closer look

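Fosl1 had ratios of at least 2-fold in opposite directions on different days. Its log2 ratio of vemurafenib to vehicle was 1.16 on day 2, 1.29 on day 6 and -1.60 on day 14, from 5.05, 2.01 and 0.0879 FPKM with vemurafenib and 2.20, 0.762 and 0.470 FPKM with vehicle. The difference between days was not tested, since each ratio rests on 1 library per arm. With 1 FPKM added in place of 0.1 the ratios kept their signs, at 0.92, 0.77 and -0.43, all below 2-fold.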

How the results depend on the processing

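The reported fit already pairs the arms by day, and the labels give no replicate numbers to pair by. Of the members' single ratios under the alternatives, 321 stayed on their side of 2-fold, 7 fell short of it, 1 passed it and none that was called turned its sign. The number of members at least 2-fold apart moved by over 1.5 times on day 2, to 1 with a constant of 1 FPKM (from 3), and on day 14 (1 in the reported setting, Fosl1), to 0 with that constant, to 0 with the filter raised to 5 FPKM, where Fosl1 is left out, and to 2 with the same total FPKM, where Fosb (-1.04) joins it. The vemurafenib effect common to the days was called in 0 genes with no filter or with that of 5 FPKM, in 13 without day 2, in 11 without day 6 and in 0 without day 14, against 1 in the reported setting, and in no member under any of these. Without day 6 the Fos and Atf3 effects moved by over 1.5 times, to 0.36 and 0.74. With no filter on low FPKM the limma calls over all genes were 31 for day 6 against day 2 (636 as reported), 31 for day 14 against day 6 (488) and 12 for day 14 against day 2 (2402), over 23913 genes tested. Atf3 was called for day 6 against day 2 under the filter of 5 FPKM (limma adjusted p = 0.0483). Depth is unknown, and the low values of Fosl1 and of day 14 Fosb are the least certain.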
